A study of Mytilus galloprovincialis with 18 samples.

Results

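The gill response to the intermediate metal dose was examined in 3 adult Mediterranean mussels (Mytilus galloprovincialis) kept for 48 h in artificial sea water with Cd, Cu and Hg chlorides at 100 nM each. Their gill RNA was compared with 1 pool of equal amounts of gill RNA from 5 control mussels, kept in parallel without added metals. The comparison rests on all 6 arrays labelled 100 nM, of 18 arrays and 9 mussels in the study, and takes in every probe of the array. The other 12 arrays come from 3 mussels at 50 nM and 3 mussels at 200 nM of the same mixture. Each mussel was hybridised on array A (mussel in Cy3, pool in Cy5) and on array B with the dyes exchanged. All values below are log2 ratios of mussel over control pool, so that 1 means a doubling in the mussel and -1 a halving. Animals were of mixed sex and came from a farming site, with 5 mussels per tank and 1 tank per dose. Dose and tank therefore cannot be told apart, and the pool, as 1 control sample, hides the spread between control mussels.

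The gill of a filter-feeding bivalve is a sheet of ciliated filaments that moves water, takes up oxygen and collects food, and it is among the first tissues in contact with dissolved metals. Cd and Hg, and Cu in excess, bind the thiol groups of proteins, displace other metals from their sites and lead to oxidative stress. Cells are known to meet such damage with chaperones that refold proteins, with ubiquitin tagging, the proteasome and autophagy, which remove them, and with metallothionein and glutathione enzymes, which bind metals or detoxify.

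The array carries 1920 probes in 2 spots each, and 446 of them (23.2%) have a description, mostly from lists that the study chose on these same samples. Of these, 274 have a name and 172 are without similarity to a known protein. Counts within gene groups are therefore not independent evidence of their direction. In each group below, an excess over the share of all probes follows in part from that choice. The paper describes fewer mussel probes than 1920, beside unrelated controls. Which probes are controls is not marked here, so shares over all probes and the adjustment include them. No probe passed at an adjusted p under 0.05 in the limma fit of all 9 mussels (0 of 1920, 0%), and the smallest adjusted p was 0.0855. At an unadjusted p under 0.05, 78 probes were higher (4.06%) and 105 were lower (5.47%) in the 100 nM mussels than in the pool. All 3 mussels lay above the pool for 362 probes (18.9%) and all 3 lay below it for 319 (16.6%). On all 6 arrays, 74 probes were higher and 89 were lower. The median standard error of a mean was 0.165 and the median SD between the mussels was 0.242, with a median over all probes of 0.004. The values that follow are thus a description of the 3 mussels, with the adjusted p of that fit where it is given.

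The shared spread of that fit is set in part by the 50 nM mussels. The third mussel at 50 nM ran against all 8 other mussels (r of -0.165 to -0.418 across 1920 probes), and the direction of its ratios is not settled. Without it, 9 probes passed at 100 nM. They were sequestosome-1, FK506-binding protein, heat shock protein HSP70, translation initiation factor 5A and Myt01-011E01, all higher, and inhibitor of apoptosis 1, beta tubulin, Myt01-018B03 and Myt01-008B03, all lower. With the sign of its ratios turned, 15 passed (9 higher and 6 lower). In the log2 ratios that the authors deposited, 3 passed, namely FK506-binding protein and Myt01-011E01, higher, and Myt01-018B03, lower. One-class SAM, the test named in the study's methods, called 4 higher and 6 lower with the false discovery rate limited to 1.3%. The estimated rate was 0%, which says little because 3 mussels allow few sign flips. The study itself listed 161 probes at 100 nM with the SAM program on its own normalized values. It also measured selected transcripts by quantitative RT-PCR on pooled gill RNA and reports that they rose, to varying degrees, with the dose. Those values are not compared here.

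Sequestosome-1 (Myt01-007D04), an adaptor that in mammals carries ubiquitin-tagged proteins to autophagy, stood farther above the pool than any other probe. Its log2 ratios were 2.90, 4.36 and 3.76 in the 3 mussels, a mean of 3.67 ± 0.73 (SD, n = 3), or 12.7-fold. Before normalization, spot intensity after subtraction of background was 5407.5 in the first mussel and 919.5 in the pool on array A, and 4293.5 in the mussel and 871.5 in the pool on array B. In the second mussel it was 33742.5 against 2534 in the pool on array A, and 40062 against 2061 in the pool on array B. In the third mussel it was 7007 against 587.5 in the pool on array A, and 21487.5 against 1108.5 in the pool on array B. All 6 arrays placed the mussel above the pool, and the excess was smallest in the first mussel. The limma adjusted p was 0.18 with a 95% interval of 1.77 to 5.57, from an error shared with the 50 nM mussels, among which this probe spread from -2.43 to 4.32.

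FK506-binding protein (Myt01-012A04), a prolyl isomerase that assists protein folding, came next among the higher probes. It had log2 ratios of 1.46, 1.39 and 0.89, with a mean of 1.24 ± 0.31 (SD, n = 3), a 2.37-fold excess. The 6 arrays ranged from 0.80 to 1.53, and the 95% interval of the mean was 0.78 to 1.71 (limma adjusted p = 0.0855). The cyclophilins, prolyl isomerases of another family, did not share this excess. One (Myt01-009D06) had 0.16, -0.19 and -0.18, and the other (Myt01-006A07) had -0.83, -0.14 and -0.30, below the pool in every mussel.

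Among the 8 probes for heat shock proteins and chaperones, all 8 means lay above 0, with a median of 0.62. Over all 1920 probes, 974 means lay above 0. Of the 8, 5 were higher in all 3 mussels and 5 were higher at an unadjusted p under 0.05, against shares of 18.9% and 4.06% over all probes. The study's own 100 nM list held 6 of the 8 probes, so this excess is not independent of it. None was lower in all 3. The heat shock protein HSP70 (Myt01-014B11), the stress-inducible chaperone, had 1.24, 0.92 and 0.81, with a mean of 0.99 ± 0.22 (SD, n = 3; limma adjusted p = 0.15). The first mussel was the highest here, and all 6 arrays lay between 0.68 and 1.28.

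The other chaperones showed a different order of the mussels. The small heat shock protein, a holdase that keeps unfolded proteins soluble, has a pair of probes. Myt01-011G05 gave 0.23, 1.38 and 0.90 (mean 0.84) and Myt01-013C12 gave -0.31, 2.01 and 1.37 (mean 1.02). HSP90, the chaperone of kinases and receptors, gave -0.15, 0.62 and 1.00 on Myt01-016G09 (mean 0.49) and -0.42, 0.84 and 0.20 on Myt01-015D01 (mean 0.20). In these 4 probes the first mussel was always the lowest, and in 3 of them it lay below the pool. The heat shock cognate HSC70, a constitutive chaperone, had 0.37, 1.02 and 0.56. HSC71 had 0.60, 0.75 and 0.02. Chaperonin subunit 7, a subunit of the cytosolic chaperonin, had 0.62, 0.72 and 0.40, all above the pool. Without background subtraction the means were lower, at 0.46 for Myt01-011G05, 0.56 for Myt01-013C12, 0.34 for chaperonin subunit 7 and 0.14 for HSC71.

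**Figure D1:**
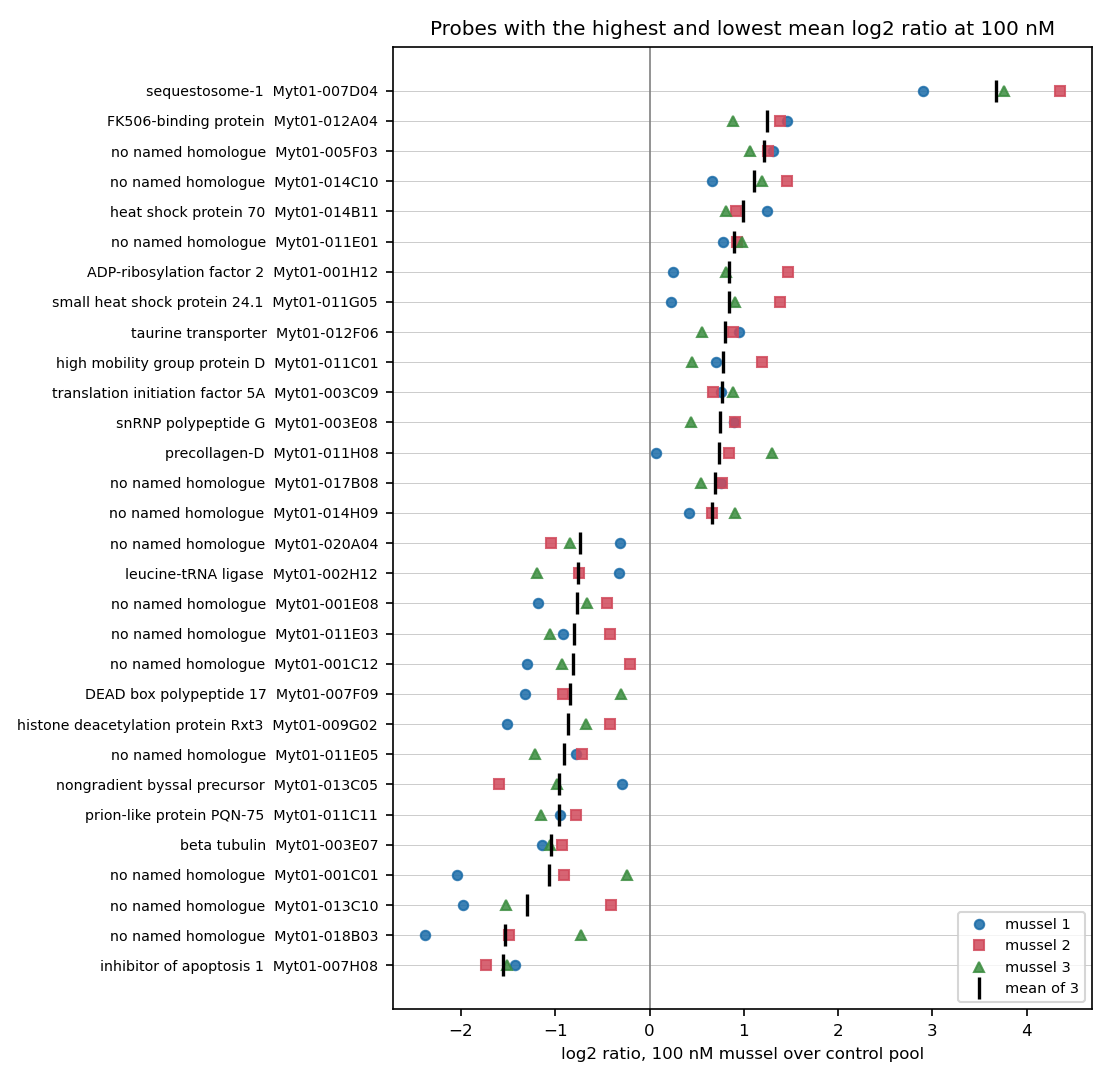
Log2 ratio of each 100 nM mussel over the control pool (x axis) for the 15 probes with the highest and the 15 with the lowest mean among those with 1 sign in all mussels and an unadjusted p under 0.05. Circles, squares and triangles are mussels 1, 2 and 3 and the bar is their mean; sequestosome-1, at 2.90 to 4.36, lies apart from the rest, while inhibitor of apoptosis 1 and beta tubulin have the most closely grouped low values.

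The proteasome, which degrades tagged proteins, was represented by 10 probes with a median of 0.21, and 5 of them were higher in all 3 mussels, against 18.9% over all probes. One, proteasome non-ATPase regulatory subunit Myt01-007D02, was higher at an unadjusted p under 0.05, with 0.46, 0.25 and 0.52, where 4.06% of all probes were. The highest mean was that of another 26S regulatory subunit, Myt01-003G03, with 1.12, 0.19 and 0.84, a mean of 0.72 that was 0.31 without background subtraction. The other 8 had means of -0.003 to 0.40, and none was lower in all mussels. The ubiquitin probes parted. Polyubiquitin (Myt01-006B11) had -0.14, 0.89 and 0.42, while ubiquitin (Myt01-015G01) had -0.69, -0.20 and -0.42, below the pool in each mussel (limma adjusted p = 0.46).

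The 7 metal-binding and antioxidant probes had a median of 0.38, but the mussels differed. Metallothionein-10B (Myt01-016C08), a cysteine-rich protein that sequesters Cd, Cu and Hg, had -0.11, 1.13 and 0.72, with a mean of 0.58 ± 0.63 (SD, n = 3; limma adjusted p = 0.62). The arrays of the first mussel gave -0.25 and 0.02, at the level of the pool, and the 4 arrays of the other mussels gave 0.49 to 1.42. Glutathione S-transferase GSTpi1, which couples glutathione to toxic compounds, repeated this order with -0.14, 1.27 and 1.29. Microsomal glutathione S-transferase 3 had 0.04, 0.91 and 0.20. Thioredoxin, a reductase substrate that keeps thiols reduced, had -0.59, 0.29 and -0.02. The first mussel was thus the lowest for each of these 4 probes.

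The other 3 members did not share that order. Selenide, water dikinase, which makes the selenium donor of selenoproteins, was above the pool in every mussel with 0.73, 0.47 and 0.28. Selenium-binding protein was below it in every mussel with -0.41, -0.63 and -0.66 (limma adjusted p = 0.32). Ferritin, the iron store, had -0.15, -0.37 and 0.09, on both sides of the pool. Without background subtraction the mean of selenide, water dikinase was 0.06, against 0.49 with it, that of selenium-binding protein was -0.26, against -0.57, and that of GSTpi1 was 0.52, against 0.81.

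**Figure D2:**
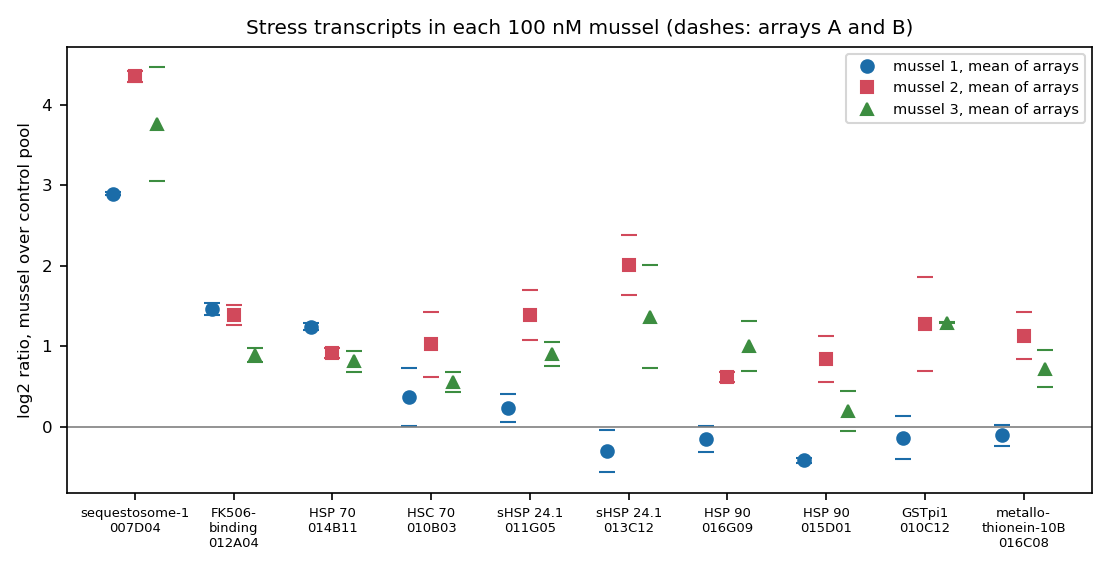
Log2 ratio over the control pool (y axis) of 10 stress probes in each 100 nM mussel, where symbols are the mean of a mussel's 2 arrays and dashes are the single arrays. Mussel 1 lies at or below 0 for Myt01-013C12, both HSP90 probes, GSTpi1 and metallothionein-10B, where mussels 2 and 3 lie above 0, but not for sequestosome-1, FK506-binding protein and HSP70.

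Probes for protein synthesis stayed near the pool apart from single members. The 35 ribosomal protein probes had a median of 0.08 and means between -0.31 and 0.46. Of these, 2 were higher (S12 and S27E) and 2 were lower (RPS14 and L4) at an unadjusted p under 0.05, shares near the 4.06% and 5.47% of all probes. In all 3 mussels 10 were higher and 6 were lower, against 18.9% and 16.6% of all probes. S12 had 0.70, 0.12 and 0.56, and RPS14 had -0.14, -0.62 and -0.18. Of 12 translation factor probes (median 0.17), 4 were higher and 1 was lower in all mussels, and 1 was higher at an unadjusted p under 0.05. Translation initiation factor 5A (Myt01-003C09), which helps the ribosome through difficult peptide bonds, had 0.76, 0.68 and 0.88. Its mean of 0.77 ± 0.10 (SD, n = 3; limma adjusted p = 0.14) rests on 6 arrays between 0.57 and 1.07. By contrast, the 3 probes for elongation factor 1 alpha, which brings aminoacyl-tRNA to the ribosome, had means of 0.20, 0.14 and -0.17. Of the 3 tRNA ligase probes, leucine-tRNA ligase (Myt01-002H12) had -0.33, -0.75 and -1.19, while leucyl-tRNA synthetase (Myt01-003A02) had 0.16, -0.04 and 0.52. The mitochondrial aspartyl-tRNA synthetase had 0.05, -0.01 and 0.32. The mean of Myt01-002H12 was -0.17 on arrays A and -1.35 on arrays B.

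RNA processing held several of the higher probes. Of 16 probes (median 0.31), 9 were higher and 3 were lower in all 3 mussels, against 18.9% and 16.6% of all probes. At an unadjusted p under 0.05, 6 were higher and 1 was lower, against 4.06% and 5.47%. Of the 16 probes, 7 were on the study's own 100 nM list. Small nuclear ribonucleoprotein polypeptide G (Myt01-003E08), a member of the Sm ring of the spliceosome, had 0.89, 0.90 and 0.44. Its mean was 0.74 ± 0.27 (SD, n = 3; limma adjusted p = 0.18). Other Sm proteins were also above the pool. Protein B had 0.28, 0.76 and 0.48, SmD3 had 0.68, 0.06 and 0.63, Sm D1 had 0.40, 0.23 and 0.31 and D2 had 0.01, 0.77 and 0.21. PAN2, a nuclease that shortens poly(A) tails, had 0.58, 0.93 and 0.27. However, its lowest 2-spot mean over both channels of the 6 arrays was 1.14 SD above the local background. Its mean ratio of 0.59 was 0.18 without background subtraction. A cold shock domain protein had 0.53, 0.52 and 0.38. The lowest of the group was the RNA helicase DEAD box polypeptide 17 (Myt01-007F09), with -1.32, -0.92 and -0.30 and a mean of -0.84 ± 0.51 (SD, n = 3; limma adjusted p = 0.18). Exosome component 2, of the complex that trims and degrades RNA, lay below the pool in every mussel too, with -0.13, -0.09 and -0.67.

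The cytoskeleton had the lowest median of the gene groups. All 6 tubulin and actin probes had means below 0, with a median of -0.60. Over all 1920 probes, 946 means were below 0. Of the 6, 5 were lower in all mussels and at an unadjusted p under 0.05, against shares of 16.6% and 5.47% over all probes. The study's own 100 nM list held 5 of the 6, so this excess is not independent of it. Beta tubulin (Myt01-003E07) had -1.14, -0.93 and -1.06, with a mean of -1.04 ± 0.10 (SD, n = 3; limma adjusted p = 0.16). On array A of the first mussel its spots read 7732.5 in the mussel and 17751.5 in the pool, and on array B of the third 11221 in the mussel and 16186 in the pool. All 6 arrays lay between -0.73 and -1.38. The 3 alpha tubulin probes agreed, with -0.54, -0.82 and -0.68 for Myt01-016D09, -0.76, -0.22 and -0.72 for Myt01-006H12, and -0.30, -0.60 and -0.64 for Myt01-015C02. Actin (Myt01-015H12) had -0.63, -0.53 and -0.73, and partial beta-actin (Myt01-012D12) had -0.71, 0.08 and -0.56.

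Tubulins build the axoneme, the core of motile cilia, and the gill is rich in ciliated cells. Beta tubulin was bright in both channels, with every 100 nM spot mean at least 38.9 SD above local background. Fewer cells of one type and less RNA per cell cannot be told apart in whole gill RNA. Of 7 cilium and axoneme probes (median -0.29), 5 were lower in all mussels and 2 of them at an unadjusted p under 0.05, against 16.6% and 5.47% of all probes. Axonemal dynein light chain p33, part of the motor of the ciliary beat, had -0.65, -0.66 and -0.67 on Myt01-011H07 (mean -0.39 in the deposited ratios). The other probe of that name, Myt01-006E09, had -0.0008, 0.30 and 0.01, so the pair did not agree. Radial spokehead had -0.37, -0.14 and -0.36, with a lowest 2-spot mean 1.90 SD above the local background. The median of the group was -0.18 without the third mussel and -0.17 in the deposited ratios. The 3 muscle probes, which mark another source of actin in a dissected gill, had means of 0.14, -0.20 and -0.34 and none was at an unadjusted p under 0.05. The part of cell composition in these values was not tested.

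**Figure D3:**
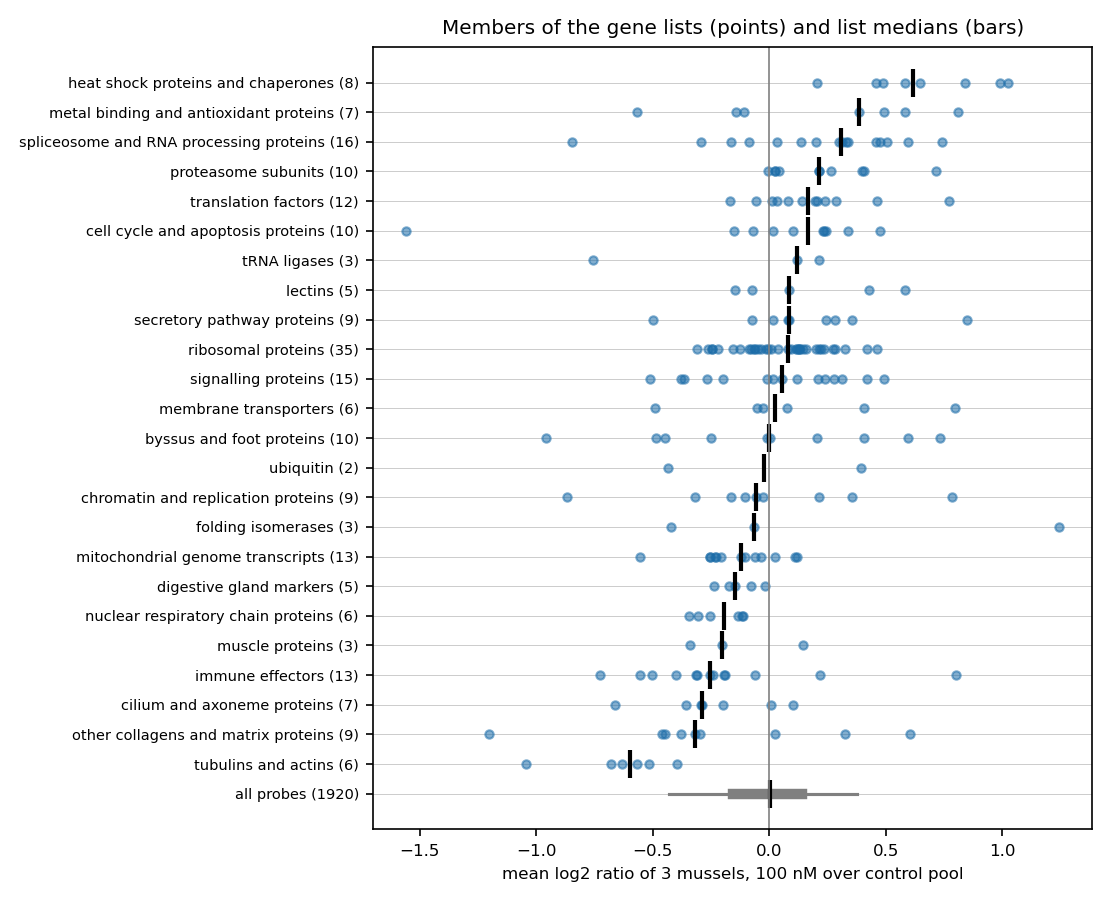
Mean log2 ratio of the 3 mussels over the control pool (x axis) for each probe (points) of the named groups, with the number of probes in brackets and the median as a bar; the bottom line gives the median, the middle 50% (box) and the middle 90% (line) of all 1920 probes. Heat shock proteins and chaperones have the highest median, 0.62, and tubulins and actins the lowest, -0.60.

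Byssus and foot genes, whose products form the threads that anchor the mussel, had a median of -0.003 over 10 probes because members lay on both sides. Precollagen-D, the stiff collagen of the distal thread, had 0.07, 0.84 and 1.30 on Myt01-011H08 and -0.65, -0.73 and -0.08 on Myt01-015G12. Precollagen-P, the elastic collagen of the proximal thread, had means of 0.59, 0.21 and -0.45 on its 3 probes, and precollagen-NG had 0.40 and -0.01. Probes that share a name thus differed in sign, and no direction is given for these genes. The study gives such probes different sequence identifiers, so they may be different transcripts. Nongradient byssal precursor (Myt01-013C05) had -0.29, -1.59 and -0.99. Its mean was -0.96, or -0.54 without background subtraction, and that of Myt01-015G12 was -0.49, or -0.19 without it. Polyphenolic adhesive protein, a glue protein of the foot, had -0.26, -0.46 and -0.02, and foot protein 3 had -0.04, 0.05 and 0.01. These last probes stayed close to the pool.

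The 9 other collagen and matrix probes had a median of -0.32, with 4 lower and 1 higher in all mussels and 1 each way at an unadjusted p under 0.05. Over all probes, 16.6% were lower and 18.9% higher in all mussels, and 5.47% and 4.06% were so at that p. Collagen alpha-2(IV) chain, of the basement membrane, was the member higher in all mussels, with 0.61, 1.11 and 0.09. Its mean of 0.60 was 0.34 without background subtraction. Collagen pro alpha-chain had -0.31, -0.50 and -0.53. Type XII collagen (Myt01-010B10) had the lowest mean of the group, -1.20, but its mussels had -0.92, -2.96 and 0.27. The second mussel was by far the lowest.

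By mean, 11 of 13 immune probes were below the pool, against 946 of all 1920 probes. Of 13 immune effector probes (median -0.26), 6 were lower in all 3 mussels, 5 were lower at an unadjusted p under 0.05 and none was higher in all. Over all probes the shares were 16.6% lower in all 3 and 5.47% lower at that p. Of the 13 immune probes, 5 were on the study's own 100 nM list. C1q domain proteins, which bind microbial surfaces, varied among themselves. MgC1q47 had -1.18, -0.60 and -0.40 and MgC1q98 had -0.94, -0.19 and -0.37, all below the pool. MgC1q8 (Myt01-015F11) had 0.78, 2.40 and -0.78, the widest spread of the group. Among antimicrobial peptides of haemocytes, mytimacin-4 had -0.38, -0.32 and -0.49 and mytimacin-2 had -0.73, 0.85 and -0.31. A defensin-like protein had 0.05, -1.41 and -0.30. Without background subtraction the mean of MgC1q47 was -0.39, against -0.73 with it. The 5 lectin probes, sugar-binding proteins, had a median of 0.09, which was -0.13 without the third mussel. Only C-type lectin 5 was above the pool in each mussel, with 0.21, 1.15 and 0.38 (mean 0.58, or 0.27 without background subtraction).

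The respiratory chain showed no probe at an unadjusted p under 0.05 in either direction. The 13 probes of the mitochondrial genome had a median of -0.12 and means from -0.56 to 0.12. ND6 was the lowest, with -0.26, -1.01 and -0.40. Cytochrome oxidase subunit 3 has several probes, and Myt01-016F03 had 0.12, 0.09 and 0.15 while Myt01-019B03 had -0.45, -0.53 and 0.21. The 6 nuclear-encoded probes all had means below 0, from -0.11 to -0.34, as did 946 of all 1920 probes. Of the 6, 1 was lower in all mussels, against 16.6% of all probes. Cytochrome c oxidase subunit IV had -0.36, 0.09 and -0.76, on both sides of the pool.

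Inhibitor of apoptosis 1 (Myt01-007H08), of a family that blocks caspases, had the lowest mean of all probes at an unadjusted p under 0.05. Its log2 ratios were -1.43, -1.74 and -1.51, with a mean of -1.56 ± 0.16 (SD, n = 3), or 0.34 of the pool. Intensities were 1681 in the mussel and 4769 in the pool on array A of the first mussel, and 1565 in the mussel and 4725 in the pool on its array B. On array A of the second they were 3471.5 in the mussel and 14560 in the pool, and on array B 3195.5 in the mussel and 9886.5 in the pool. On array A of the third they were 1244 in the mussel and 1905.5 in the pool, and on array B 2751 in the mussel and 6055 in the pool. All 6 arrays lay between -1.39 and -1.80. The limma adjusted p was nevertheless 0.35, with a 95% interval of -2.64 to -0.47, from an error shared with the 50 nM mussels, which had -1.80, -1.99 and 1.42.

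The other 9 cell cycle and apoptosis probes stayed closer to the pool (median of all 10, 0.16). Caspase 3/7-3, an executioner protease of apoptosis, had 0.28, 1.01 and 0.13, above the pool in every mussel. Caspase 1 had -0.10, -0.04 and -0.31. The growth arrest and DNA-damage-inducible probe (Myt01-006C05) had -0.02, 0.59 and 0.45. Translationally controlled tumor protein had means of 0.24 and 0.23 on its probes.

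Single members stood out in groups with medians near 0. Of 6 transporters (median 0.03), taurine transporter (Myt01-012F06), which moves the main organic osmolyte of marine bivalves, had 0.95, 0.89 and 0.55, a mean of 0.80 ± 0.21 (SD, n = 3; limma adjusted p = 0.31). Its lowest 2-spot mean was 1.24 SD above the local background and its mean ratio was 0.51 without background subtraction. Magnesium transporter 1 had 0.33, 0.45 and 0.45, with a lowest 2-spot mean at 1.39 SD and a mean ratio of 0.41 that was 0.12 without the subtraction. Multidrug resistance-associated protein, an export pump, had -0.27, -0.44 and -0.75. The P-glycoprotein probes, another kind of export pump, had means of -0.03 and -0.05. Of 9 secretory pathway probes (median 0.09), ADP-ribosylation factor 2, a GTPase of vesicle budding, had 0.25, 1.47 and 0.82. Stress-associated endoplasmic reticulum protein had -0.51, -0.41 and -0.58, below the pool in all mussels.

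Of 15 signalling probes (median 0.05), receptor for activated C-kinase, a scaffold on the ribosome, had 0.88, 0.35 and 0.25. Calmodulin, the calcium sensor, had -0.56, -0.78 and -0.19 (mean -0.51, or -0.17 without background subtraction). The other 13 were not at an unadjusted p under 0.05, and the median was -0.01 with median centring of the arrays. Of 9 chromatin and replication probes (median -0.06), high mobility group protein D had 0.70, 1.19 and 0.45, and Rxt3, of a histone deacetylase complex in yeast, had -1.52, -0.42 and -0.67. Their means were 0.78 and -0.87, or 0.24 and -0.34 without background subtraction and 0.37 and -0.46 in the deposited ratios. The lowest 2-spot mean of high mobility group protein D was 1.45 SD above the local background. Proliferating cell nuclear antigen, the DNA polymerase clamp, had -0.06, 0.03 and -0.28. The 5 digestive gland probes, markers of a neighbouring organ, had means of -0.02 to -0.24, and none was at an unadjusted p under 0.05.

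Many of the most displaced probes had no known name. Of the 15 highest and 15 lowest probes shown in the plot of named probes, 5 and 7 were of this kind, and another of the lowest (Myt01-001C12) matched a hypothetical protein, with -1.30, -0.21 and -0.93. Myt01-018B03 was lowest in the first mussel, with -2.39, -1.49 and -0.73, a mean of -1.53 ± 0.83 (SD, n = 3; limma adjusted p = 0.0855). That mean was -0.83 without background subtraction and -1.11 in the deposited ratios. Myt01-011E01 had 0.78, 0.93 and 0.98. Myt01-005F03 had 1.31, 1.26 and 1.07, but its 6 arrays spread from 0.25 to 1.88, and its mean of 1.21 was 0.44 without background subtraction and 0.77 with plain subtraction. Myt01-013C10 had -1.98, -0.41 and -1.52. The prion-like protein PQN-75 (Myt01-011C11), named by a nematode homologue, had -0.95, -0.78 and -1.16 (limma adjusted p = 0.15). Below the pool on all 6 arrays but above the unadjusted threshold were Myt01-008B03, with -2.07, -1.10 and -2.48, and Myt01-005H11, with -1.57, -1.75 and -1.59. The mean of Myt01-005H11 was -1.64, or -0.85 without background subtraction, and its lowest 2-spot mean was 1.83 SD above the local background. At 50 nM, Myt01-008B03 spread from -3.72 to 4.48. Among the 15 highest, 13 were above the pool on all 6 arrays, and 12 of the 15 lowest were below it on all 6. These probes were chosen on the same arrays, so this agreement follows in part from the choice. Over all probes, 3.85% were above the pool and 4.64% below it on all 6. Without background subtraction the mean was over 1.5 times nearer to 0 for 5 of the 15 highest and 6 of the 15 lowest.

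Agreement between arrays limits how far single probes can be read. The ratios of arrays A and B of a mussel correlated across the 1920 probes at 0.455 in the first mussel, 0.0527 in the second and 0.0388 in the third. In the deposited ratios the values were 0.568, 0.243 and 0.314. At the other doses the 6 mussels had 0.236 to 0.476. Between the 100 nM mussels the correlations were 0.192 to 0.263, and these share the pool. Array A of the second mussel stood apart in brightness, with a median spot intensity of 769 in the mussel and 2787.5 in the pool. On array A of mussels 1 and 3 the order was the reverse, with 1130 and 1212 in the mussels and 464 and 437 in the pool. Its median background was also lower in the mussel channel, at 195 against 1184 in the pool channel. The labels were nevertheless followed for the direction of its ratios. On it sequestosome-1 had 4.29, against 4.42 on array B of the same mussel, and inhibitor of apoptosis 1 had -1.80, against -1.68 on array B. Taking that mussel from array B alone again left 0 probes passing. The header of array A of the first mussel names another control image than those of the other arrays, and array B alone for that mussel also left 0.

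**Figure D4:**
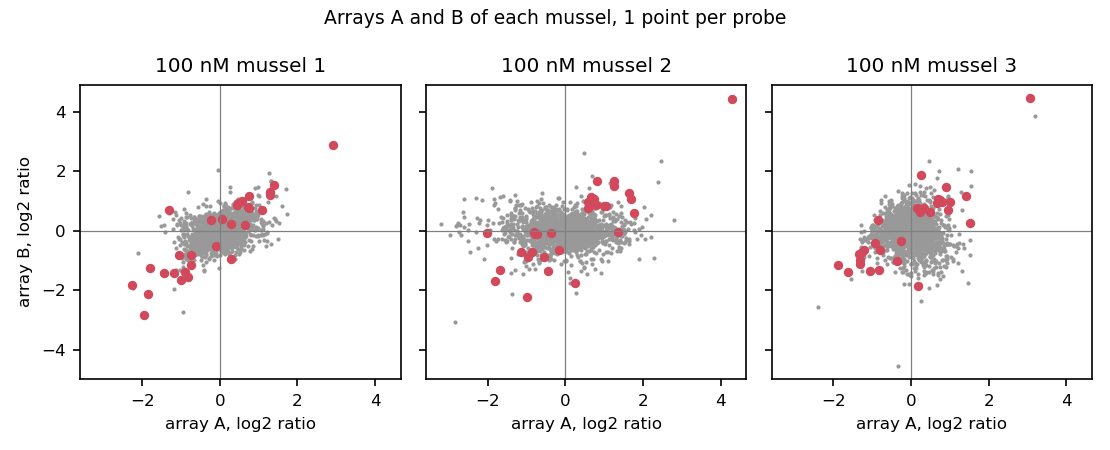
Log2 ratio over the control pool on array A (x axis) and on array B (y axis), 1 point per probe and 1 panel per 100 nM mussel, with the 15 highest and the 15 lowest probes of the plot of named probes in red. The clouds are elongated along the diagonal in mussel 1 only (r = 0.455, against 0.0527 and 0.0388 in mussels 2 and 3). The red probes lie mostly in the quadrants where both arrays have 1 sign, which their choice on these same arrays favours.

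The first mussel lay below the other mussels in many of the stress probes. Its median was 0.30 over the 8 chaperone probes, against 0.88 in the second and 0.68 in the third, and it was the lowest of the 3 mussels for 5 of them. Over the 7 metal-binding and antioxidant probes the medians were -0.14, 0.47 and 0.20, and it was lowest for 4. Across all 1920 probes the first mussel was lowest for 32.2%. Over the 10 proteasome probes the first mussel had the highest median, with 0.39, 0.18 and 0.15. The medians of tubulins and actins were -0.67, -0.57 and -0.70, close to each other in all mussels. With 1 mussel these differences have no test.

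The 100 nM mussels were also set against the mussels of the other doses. Between 100 and 50 nM no probe differed at an adjusted p under 0.05 (0%), and 85 (4.43%) did so unadjusted, with a smallest adjusted p of 0.998. Between 200 and 100 nM no probe differed either (0%), and 113 (5.89%) did so unadjusted, with a smallest adjusted p of 0.63. Against the pool itself, 0 probes passed at 50 nM and 39 at 200 nM. All 3 doses share the pool, so their ratios are not independent of each other.

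Sequestosome-1 had means of 1.15, 3.67 and 4.82 at 50, 100 and 200 nM. The difference of 100 minus 50 nM was 2.53 ± 1.23 (SE) and that of 200 minus 100 nM was 1.15 ± 1.23 (SE; limma adjusted p of 0.998 and 0.869). HSP70 had means of 0.16, 0.99 and 1.48, metallothionein-10B had -0.52, 0.58 and 1.67, and GSTpi1 had 0.20, 0.81 and 2.07. Their means followed the dose, though single mussels of 100 nM overlapped those of a neighbouring dose for each of these probes. The 50 nM means include the third mussel of that dose, the direction of whose ratios is not settled. At 50 nM sequestosome-1 had 4.32, 1.54 and -2.43, and HSP70 had 0.72, 0.29 and -0.55. The small heat shock protein (Myt01-011G05) had 0.71, 0.84 and 1.96.

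Other probes had their largest displacement at 100 nM. FK506-binding protein had means of 0.10, 1.24 and 1.06, with all 3 mussels at 100 nM above all 3 at 50 nM (100 minus 50 nM, 1.14 ± 0.298 SE; limma adjusted p = 0.998). At 50 nM it had 0.63, 0.32 and -0.65, the last in the mussel of unsettled direction. Beta tubulin had -0.37, -1.04 and -0.82, and Sm protein G had 0.08, 0.74 and 0.46. Myt01-018B03 had -0.35, -1.53 and -0.43, and its 3 mussels at 100 nM lay below all 6 mussels of the other doses, with 200 minus 100 nM at 1.10 ± 0.345 (SE; limma adjusted p = 0.794). Myt01-020G06, which had -0.52, -0.79 and -0.70 at 100 nM, had means of 0.02 and 0.11 at 50 and 200 nM, and its mussels did not overlap those of either dose. Its arrays did not agree, with 0.18 on array A and -1.58 on array B of the third mussel, and its 100 nM mean of -0.67 was -0.28 without background subtraction, -0.31 with print-tip loess and -0.30 in the deposited ratios. None of these differences passed the adjusted threshold. The probes were chosen for their values at 100 nM, which favours their separation from the other doses. The share of all probes whose mussels separated in this way is not given here.

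**Figure D5:**
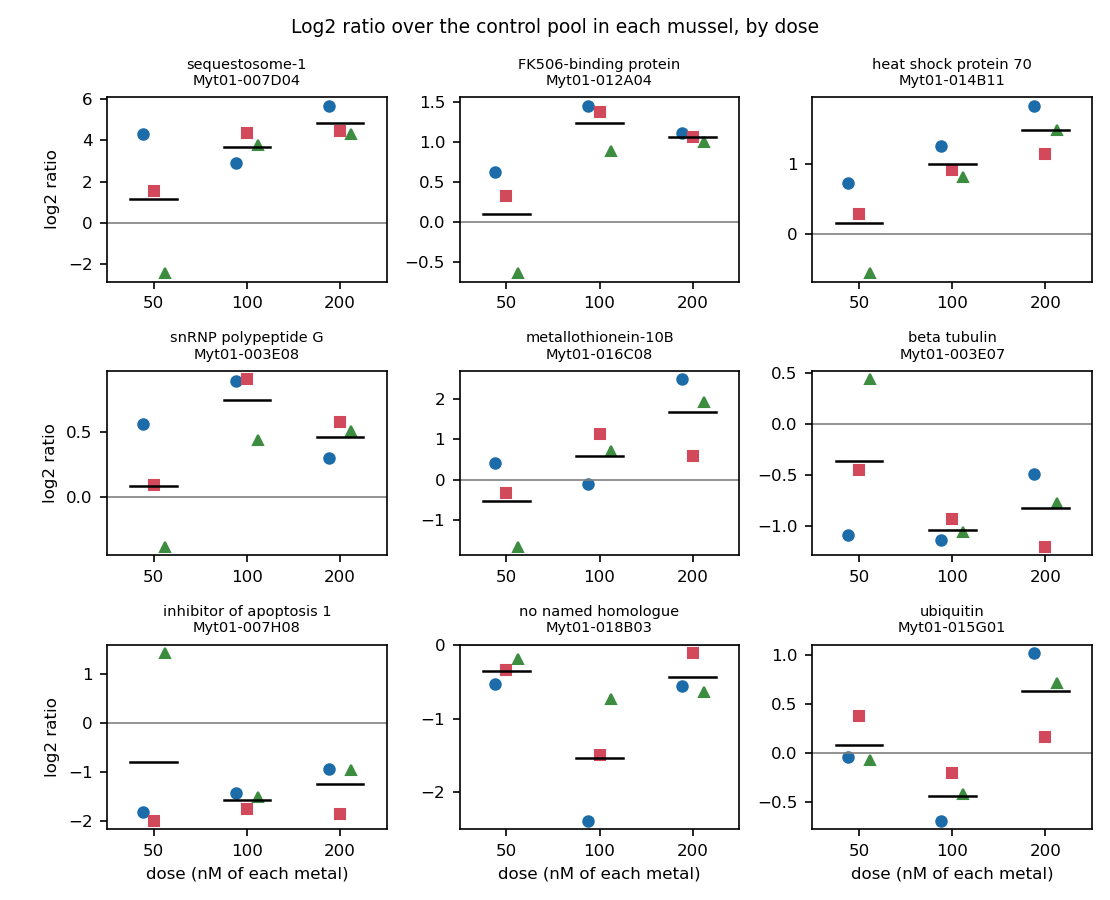
Log2 ratio over the control pool (y axis, its own range in each panel) at 50, 100 and 200 nM of each metal (x axis) for 9 probes, with circles, squares and triangles for mussels 1, 2 and 3 of each dose and a bar for the mean. The 100 nM means of sequestosome-1, HSP70 and metallothionein-10B lie between those of the other doses, while Myt01-018B03 has its lowest mean, -1.53, at 100 nM.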

How the data were processed

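Spot intensity with its local background was read in each channel by the authors with ScanArray Express. The deposited intensity is before subtraction, as checked on the array whose file lists ratios too. A deposited table of log2 ratios, made by the authors in MIDAS with total-intensity and LOWESS normalization, served as an alternative. Its 100 nM columns had medians of -0.00854 to 0.0203 and correlated at 0.805 to 0.911 with the ratios computed here, and whether background had been subtracted is not stated. Columns of no sample in the series numbered 0.

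Median spot intensity on the 100 nM arrays was 494 to 1212 in the mussel channel and 437 to 2787.5 in the pool channel, and the spots of a probe correlated at 0.485 to 0.628. One scanner file lists its spots in another order and was matched by probe. Depth cannot be counted on arrays, and the number of mussels limits the precision.

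Background was corrected with normexp (offset 50) and ratios with loess (span 0.3, 4 iterations) on each array. Values were averaged over the 2 spots and then over both arrays of a mussel. A mean for each dose was fitted to 9 mussels with limma 3.58.1 (R 4.3.3), which set each against 0 and compared doses with Benjamini-Hochberg adjustment over 1920 probes at 0.05. Replicates were grouped by the labels; p-values measure only the spread between these mussels. statmod 1.5.0 fitted correlated arrays, one-class SAM was written for this work, and Python 3.11.15 drew the plots. In simulated data with 200 changed probes, the steps for 100 nM found 39.9, 87.8 and 99.3% of changes of log2 0.5, 1 and 2. A mean of 7.4 unchanged probes passed as well. The simulated mussels varied normally and independently, without the error of the pool. These shares are therefore not the power of the real fit, where sequestosome-1 with a mean of 3.67 did not pass.

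Named probes were the 15 highest and 15 lowest means with 1 sign in the 3 mussels and an unadjusted p under 0.05, members of gene lists, and probes passing in an alternative. Members and lists were chosen with earlier results of these data known. Probe names come from the study's supplementary tables. Alternatives changed the background correction, normalization, source of values, mussels and arrays in the fit, probes tested, the pool's error and the test.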

Additional observations from a re-analysis of the deposited data

Results flagged for a closer look

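In 13 of the 242 probes described, the mussels at 100 nM all lay on one side of the control pool and those of another dose all lay on the other. This held for 3 against 50 nM and 10 against 200 nM, while over all 1920 probes it held for 28 (1.46%) and 64 (3.33%). Both counts are near these shares, so the pattern was not particular to the probes described. None of the differences passed the threshold: the limma adjusted p was 0.998 for each difference from 50 nM and 0.794 for each difference from 200 nM.

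Against 50 nM, all 3 probes were lower at 100 nM. Each result includes the third mussel at 50 nM, the direction of whose ratios is not settled. Cyclophilin Myt01-006A07 had -0.83, -0.14 and -0.30 at 100 nM and 0.03, 0.04 and 0.40 at 50 nM, a difference in means of -0.58. C1q domain protein MgC1q98 (Myt01-014G05) had -0.94, -0.19 and -0.37 at 100 nM and 0.49, 0.19 and 0.23 at 50 nM, a difference of -0.80. One of the 3 precollagen-P probes (Myt01-014D10) had -0.92, -0.10 and -0.32 at 100 nM and 0.32, 0.09 and 0.02 at 50 nM, a difference of -0.60.

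Against 200 nM, 7 probes were below the pool at 100 nM and above it at 200 nM. Ubiquitin (Myt01-015G01) had -0.69, -0.20 and -0.42 at 100 nM and 1.02, 0.16 and 0.71 at 200 nM, a difference of -1.07 for 100 minus 200 nM. The difference was -0.81 for partial elongation factor 1 alpha (Myt01-014A02), -0.76 for MgC1q4 and -0.48 for an RNA-binding protein (Myt01-018A06). For the ribosomal proteins L19, L17 and L26 it was -0.67, -0.41 and -0.43. The other 3 probes ran the opposite way, with 0.54 for proteasome subunit beta type 1, 0.63 for precollagen-P Myt01-003F09 and 0.41 for a structure-specific recognition protein (Myt01-016B01).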

How the results depend on the processing

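The count of probes passing against the pool was 0 with no or plain background subtraction, print-tip loess, scaling between arrays, arrays A or B alone, only the 1715 probes above background on all 6 arrays, and the error of a 5-mussel pool added. It was 2 with median centring (62 higher and 129 lower unadjusted, against 78 and 105), 3 in the deposited ratios, 4 with the 100 nM mussels alone, 11 without the 50 nM mussels, 15 with the sign of 50 nM replicate 3 turned, 18 on the 18 arrays with mussel as a random block, and 10 by one-class SAM. The random-block fit put the correlation between the arrays of a mussel at only 0.070. It thus counted the arrays of 1 mussel nearly as separate replicates, and its 18 overstates the replication. Leaving out 1 mussel at a time gave 0 to 9, with 9 without 50 nM replicate 3 and 1 without 100 nM replicate 3. Mussel numbers did not pair the doses (correlations of deviations -0.101 to 0.149), and with the replicate number as a block 2 probes passed. Differences between doses gave 0 passing in every alternative run. FK506-binding protein and Myt01-018B03 passed most often, in 8 settings each, and sequestosome-1 and Myt01-011E01 in 6. Each of these tallies includes the random-block fit. None of the 36 probes followed through these alternatives changed sign. All 36 had 1 sign in the 3 mussels, so leaving out a mussel of any dose could not change it. Settings that altered only the error or the other doses left the 100 nM means as they were. Only settings that altered the values or the arrays used could have changed a sign. Under alternatives, 246 list medians moved by less than their spread between mussels and 29 by more. The error of the pool left 86 probes at an unadjusted p under 0.05, against 78 higher and 105 lower without it. Tank and dose cannot be told apart.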
